A study of Mus musculus with 16 samples.

Results

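Cytosolic ribosomal protein genes encode the proteins that, with ribosomal RNA, make up the large and small subunits of the ribosome outside mitochondria. Members were taken by symbol: protein-coding genes whose symbol starts with Rpl or Rps and a digit, plus Rpsa, Rplp0, Rplp1 and Rplp2, without the Rps6k kinases. The rule matched 382 gene identifiers, of which 290 were not protein-coding (nearly all pseudogenes), and left 92 genes. Of these, 85 reached 1 FPKM (fragments per exon length, scaled to library size) in at least 4 of the 16 libraries and were tested among 11654 genes in all: 50 Rpl and 35 Rps genes. Of the 85, 76 encode core ribosomal proteins, and the other 9 are paralogs, copies annotated as coding, or genes that share only the name. The study, titled for the effect of FOXO3 on glucocorticoid receptor signalling, used bone marrow-derived macrophages from FVB/N mice, grown in medium conditioned by L929 cells, a fibroblast line that secretes the macrophage growth factor CSF1. Wild-type cells and cells labelled FOXO3-/- received DMSO vehicle or 100 nM dexamethasone, a synthetic glucocorticoid, for 24 h, which gives 4 groups with 4 libraries each. The labels do not say which exons the FOXO3-/- allele lacks, and nothing in them says that libraries came from separate animals, so a p-value here reflects only how these libraries vary, which may be technical.

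Ribosomal protein genes are among the most highly expressed genes of most cells, and their products are made in near-equal amounts because each ribosome carries a single copy of most of them. Their mRNAs typically begin with a C followed by a run of pyrimidines, the 5′ terminal oligopyrimidine (TOP) motif, through which the kinase complex mTORC1 controls their translation. In mammals each protein usually has a single intron-containing gene and many intron-less processed pseudogenes. In macrophages the amount of ribosomes is known to follow growth factor and nutrient supply.

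Between 16886745 and 20584573 reads were recovered per library. The deposited FPKM were scaled to another read number that was not a fixed share of these reads. Recovered reads were 1.07 to 1.13 times that number in wild-type vehicle and 0.98 to 1.11 times in wild-type dexamethasone libraries. The range was 1.06 to 1.24 in knockout-labelled vehicle and 1.03 to 1.04 in knockout-labelled dexamethasone libraries. A difference in FPKM between groups thus depends in part on this scaling. Foxo3 stood at 22.9 to 26.4 FPKM in wild-type vehicle libraries and at 23.2 to 24.7 FPKM in vehicle libraries labelled FOXO3-/- (two-sided exact permutation p = 0.371, n = 4 and 4). Under dexamethasone the ranges were 21.9 to 24.2 and 22.9 to 26.4 FPKM (exact permutation p = 0.171). The gene-level value therefore does not separate the genotypes, and the libraries are called knockout-labelled throughout. Macrophage markers summed to between 10705 and 17155 FPKM, while B cell, T and NK cell, neutrophil, dendritic, mast and erythroid markers each summed to at most 4.54 FPKM. Stromal markers (10 genes, of which 8 passed the filter on low values) differed most: Col1a1, a collagen of fibroblasts, was at 6.77 FPKM in wild-type vehicle replicate 3 against 124 to 174 FPKM in the other libraries of its group, at 19.1 FPKM in wild-type dexamethasone replicate 4 against 159 to 356 FPKM, and at 95.8 FPKM in knockout-labelled vehicle replicate 4 against 0.395 to 4.76 FPKM. The knockout-labelled dexamethasone group had Col1a1 at 1.18 to 25.5 FPKM.

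The coding sequences and starts below are those the results turn on. Rps3a1, which encodes a small-subunit protein at the mRNA exit channel, lies on the minus strand at chr3:86137940-86142702 (GRCm38, GENCODE M21). Its intron-less near-copies Rps3a3 (plus strand, chr13:108670603-108671397) and Rps3a2 (minus strand, chr14:88123017-88123808) are annotated as processed pseudogenes. Counting from 1 at the A of the Rps3a1 start codon, with the Rps3a1 base first, Rps3a3 differs over the 795 coding bases by 9 substitutions: T216C, T260C, C363T, A427T, T534C, G582T, A660G, C762T and G792A. Rps3a2 differs by T216C, T534C, A645T and T668C and lacks 3 coding bases. Bases 201 to 260 of the coding sequence are shown from the GENCODE M21 transcripts, with the positions at which the 3 genes differ in capitals, because a read that covers none of these positions is the same from each gene.
Rps3a1: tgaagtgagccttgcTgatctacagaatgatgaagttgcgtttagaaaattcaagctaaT
Rps3a3: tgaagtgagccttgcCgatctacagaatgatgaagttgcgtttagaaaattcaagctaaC
Rps3a2: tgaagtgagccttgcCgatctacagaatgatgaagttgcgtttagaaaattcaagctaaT

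Start windows were read from the RefSeq table (GRCm38.p6), 10 bases before to 20 bases after the annotated start, with the pyrimidine run of a TOP-like start in capitals. They show a typical TOP-like start (Rps6), a member that was nearly unread (Rps10) and the paralogs Rps27 and Rps27l, whose starts differ in the motif (Rps27l has 2 annotated starts).
Rps6 (minus strand, chr4:86857348-86857377): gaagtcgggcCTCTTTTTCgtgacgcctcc
Rps10 (minus strand, chr17:27635225-27635254): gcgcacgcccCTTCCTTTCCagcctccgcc
Rps27 (minus strand, chr3:90213629-90213658): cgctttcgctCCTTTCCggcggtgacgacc
Rps27l (plus strand, chr9:66946076-66946105): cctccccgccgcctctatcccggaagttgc
Rps27l (plus strand, chr9:66946403-66946432): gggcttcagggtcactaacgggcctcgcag
A C followed by 4 bases that are each C or T stood at an annotated start of 14 of the 62 members found in the table (22.6%), against 813 of its 27025 genes (3.01%). The letters CCGGAAG, the core of ETS-factor motifs, occurred on either strand in the 300-base window (250 bases before the start and 50 after) of 26 of 62 members (41.9%) and of 9.93% of all genes. AAGATGG, a YY1-type motif that can overlap CCGGAAG by the letters AAG, occurred in 10 of 62 members (16.1%) and 7.28% of genes, and TATAAA in 7 members (11.3%) and 15.7% of genes. An annotated start can lie some bases from the start used in these cells, so a window without the letters says nothing about the mRNA.

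As a group the members were abundant and uneven. Their mean over the 16 libraries ranged from 1.34 FPKM (Rps10) to 1560 FPKM (Rplp1, an acidic protein of the stalk that recruits translation factors), with a median of 174 FPKM. At least 100 FPKM was reached by 60 members, 17 lay between 10 and 100 FPKM and 8 between 1 and 10 FPKM. Rpl17 followed Rplp1 with 582 FPKM and Rps15 with 571 FPKM, both core proteins. At the filter on low values, Rpl39l (3.77 FPKM, at 1 FPKM or more in 9 libraries) was just inside it, followed by Rps10 (1.34 FPKM) and Rpl9-ps6 (1.54 FPKM) with 14 libraries each, and Rpl24 (0.688 FPKM, at 1 FPKM or more in 2 libraries) and Rpl36al (0.453 FPKM, in 0 libraries) just outside. The remaining genes outside were Rpl36a-ps1, Rpl9-ps1, the muscle paralog Rpl3l (0.0823 FPKM), Rpl36-ps4 and the testis paralog Rpl10l, the last 2 listed at 0 in every library.

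For Rpl36al, Rpl13a, Rpl24 and Rps10 most coding bases lie in exons that another annotated gene also claims on the same strand. For Rpl36al, 95.3% of the coding bases lie inside exons of Gm49383, for Rpl13a 90.3% inside exons of other genes (most in Gm45713), for Rpl24 83.4% (Gm28037) and for Rps10 80.1% (RPS10-NUDT3). Their levels were 0.453, 8.08, 0.688 and 1.34 FPKM, and the overlapping genes were listed at 0 or at most 0.00311 FPKM. Rpl19 shares 13.6% of its coding bases in this way and stood at 459 FPKM. Counters of reads per gene commonly set aside reads that fall in exons of more than 1 gene; whether this set these levels was not tested, and the level of these 4 genes is reported as uncertain.

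**Figure D1:**
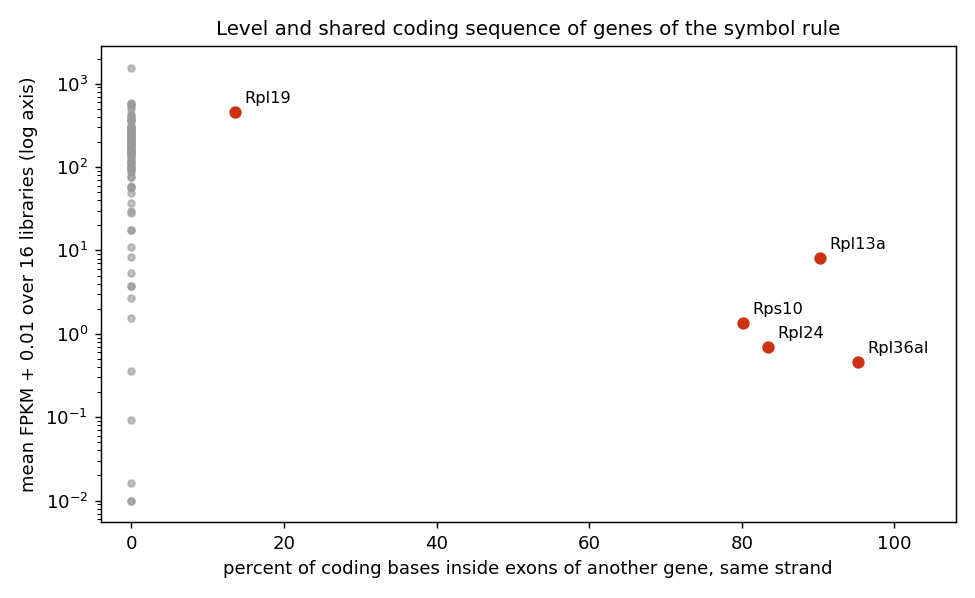
Mean FPKM over the 16 libraries plus 0.01 (log axis) against the percentage of coding bases that lie in exons of another gene on the same strand, for genes of the symbol rule with 0% or at least 10% shared. Rpl36al, Rpl13a, Rpl24 and Rps10, with 80.1% to 95.3% shared, sit between 0.453 and 8.08 FPKM, and Rpl19, with 13.6%, at 459 FPKM.

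Near-copies were the rule. A near-copy is a gene whose transcript matches at least 80% of the member's coding sequence at 95% identity or more. The matched part also had to make up at least 50% of the copy's exon length, unless the copy follows the symbol rule itself. Of the 85 members, 75 had at least 1, with 539 near-copy genes in all, mostly processed pseudogenes. In 58 members at least 50% of the 100-base windows of the coding sequence occur unchanged in another gene. For 18 members the near-copies held at least 5% of the reads summed over member and copies. The split of reads in these families depends on how reads that fit several places were handled, so the level of each is uncertain.

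The members annotated as coding copies sat at low levels beside their parents. Rps27rt (5.37 FPKM), Rps12-ps3 (3.78 FPKM) and Rpl10-ps3 (2.67 FPKM) have the same coding sequence as Rps27 (255 FPKM), Rps12 (276 FPKM) and Rpl10 (491 FPKM), base for base, and Rpl9-ps6 (1.54 FPKM) matches Rpl9 (113 FPKM) at 578 of 579 bases. Among the core genes the copies held most for Rpl34, where 51.3% of the reads lay on copies, nearly all on Rpl34-ps1 (218 FPKM against 27.9 FPKM for Rpl34), for Rps10 (49.6% of few reads), for Rps2 (43.5%) and for Rpl30 (34.3%, mostly on Gm12191). In none of the 4 treatment or genotype comparisons did Rpl34, Rps10, Rps2 or Rpl30 pass the test, nor did the 4 coding copies (limma on log2(FPKM + 1), Benjamini-Hochberg over 11654 genes, threshold 0.05).

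Rps3a1 had a pooled SD between libraries of a group of 0.59, exceeded among members by Rpl39l, on the log2(FPKM + 1) scale. Fold changes on this scale understate those of low genes. Its 8 wild-type libraries were alike: 526, 560, 510 and 554 FPKM in vehicle and 518, 543, 568 and 439 FPKM under dexamethasone. The knockout-labelled libraries were not: 492, 170, 144 and 323 FPKM in vehicle and 158, 145, 315 and 488 FPKM under dexamethasone, for replicates 1 to 4. The values fall at 3 levels, inside the wild-type range in vehicle replicate 1 and dexamethasone replicate 4, at 315 to 323 FPKM in vehicle replicate 4 and dexamethasone replicate 3, and at 144 to 170 FPKM in the other 4 libraries.

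The near-copies held the reverse pattern. Rps3a3 was at 0.218 to 1.02 FPKM in the 8 wild-type libraries, and at 0.657, 178, 203 and 111 FPKM in knockout-labelled vehicle and 227, 214, 112 and 5.07 FPKM in knockout-labelled dexamethasone libraries. Rps3a2 was at 1.36 to 2.71 FPKM in wild type, and at 1.61, 53, 70.6 and 41.9 FPKM and 75.7, 73.7, 36.2 and 3.24 FPKM in the same knockout-labelled libraries. The copies took 0.251% to 0.518% of the reads of the 3 genes in wild type. In knockout-labelled libraries they took 0.373% in vehicle replicate 1, 1.36% in dexamethasone replicate 4, 27.7% in vehicle replicate 4 and in dexamethasone replicate 3, and 52.6% to 61.7% in the other 4. A library with much Rps3a3 thus had little Rps3a1. Replicate numbers 1, 3 and 4 did not carry the level from vehicle to dexamethasone. Replicate 2 was at the lowest Rps3a1 level in both, with 52.6% and 61.7% of the reads on copies.

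Summed over the 3 genes the libraries came closer, at 513 to 563 FPKM in wild-type vehicle, 442 to 570 FPKM in wild-type dexamethasone, 401 to 494 FPKM in knockout-labelled vehicle and 432 to 496 FPKM in knockout-labelled dexamethasone. Rps3a1 alone was lower in knockout-labelled libraries by a log2 difference of -1.10 ± 0.38 (SE) in vehicle, adjusted p = 0.117, and of -1.08 ± 0.38 under dexamethasone, adjusted p = 0.0503 (limma), neither of which passed. The sum in FPKM gave -0.28 ± 0.09 in vehicle (limma adjusted p = 0.0876) and -0.16 ± 0.09 under dexamethasone (adjusted p = 0.183). Without the 3 libraries that stand apart in Col1a1, Rps3a1 alone passed under dexamethasone, with a log2 difference of -1.15, as it did after median-ratio scaling (-1.11). What sets the 3 levels was not tested.

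**Figure D2:**
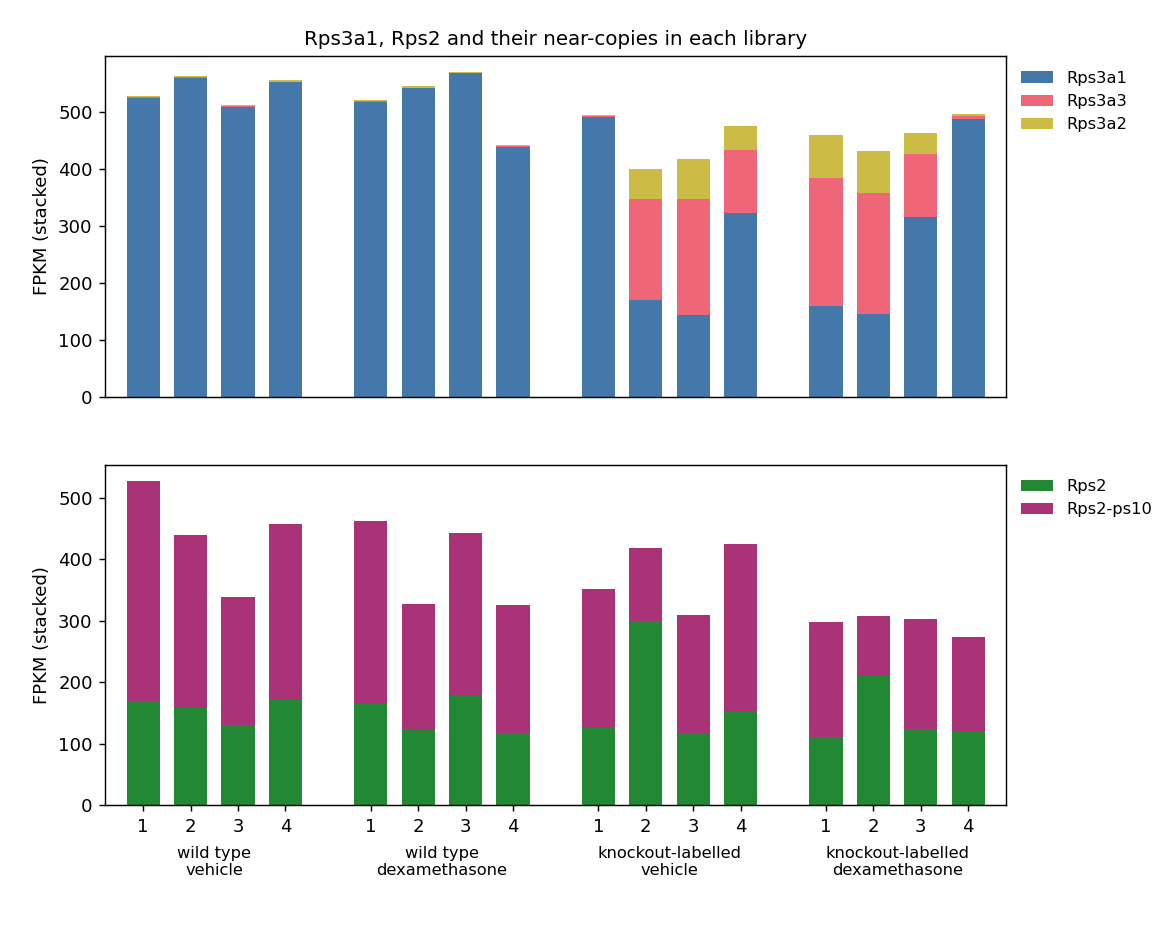
FPKM per library, stacked, for Rps3a1 with Rps3a3 and Rps3a2 (top) and Rps2 with Rps2-ps10 (bottom), replicates 1 to 4 in each group. Rps3a3 and Rps3a2 are near 0 in the 8 wild-type libraries and in knockout-labelled vehicle replicate 1, and Rps2 is highest in replicate 2 of both knockout-labelled groups, where Rps2-ps10 is lowest.

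Rps2, a small-subunit protein near the mRNA entry channel, showed a second such exchange. Rps2 was at 299 FPKM in knockout-labelled vehicle replicate 2 and 212 FPKM in knockout-labelled dexamethasone replicate 2, against 111 to 179 FPKM in the other 14 libraries. Its copy Rps2-ps10 was at 119 and 95 FPKM in those 2 libraries and at 154 to 361 FPKM in the other 14. The copy held 17.3% and 19.1% of the reads of the pair there and 40.5% to 53.2% elsewhere. Summed in FPKM over both genes, Rps2 differed between knockout-labelled and wild-type libraries by -0.22 ± 0.15 in vehicle and -0.38 ± 0.15 under dexamethasone on the log2 scale, with limma adjusted p of 0.389 and 0.0692. In this sum too a read on the copy counts for more FPKM.

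In each of the 4 groups many members were high or low in the same library. The members held between 4.48% and 6.66% of the summed FPKM. The share was 5.8%, 5.84%, 4.65% and 5.4% in wild-type vehicle replicates 1 to 4 and 5.99%, 5.77%, 6.66% and 4.48% in wild-type dexamethasone. In knockout-labelled cells it was 4.76%, 5.06%, 4.52% and 5.92% in vehicle and 5.06%, 4.94%, 5.04% and 5.2% under dexamethasone. The group means overlapped within their SD, at 5.42% ± 0.552, 5.72% ± 0.909, 5.06% ± 0.613 and 5.06% ± 0.105 (SD, n = 4).

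Wild-type vehicle replicate 3 was the lowest of its group for 73 of the 85 members, or 85.9%, against 34.6% of all genes tested. Wild-type dexamethasone replicate 4 was also the lowest of its group for 73 members (24.2% of all genes), and replicate 3 the highest for 77 (21.5% of all genes). In knockout-labelled vehicle, replicate 4 was the highest for 52 members (25.1% of all genes) and the lowest for 0 (36.0% of all genes). Replicate 3 of that group was the lowest for 62 (27.3% of all genes). In knockout-labelled dexamethasone libraries replicate 1 was the highest for 56 members (25.9% of all genes). The lowest there was replicate 2 for 33 members (20.6% of all genes) and replicate 4 for 27 (24.0%). The mean log2(FPKM + 1) of the stromal markers stood apart in some of the same libraries: it was 1.53 in wild-type vehicle replicate 3 against 4.19 to 4.32 in its group, 2.08 in wild-type dexamethasone replicate 4 against 4.41 to 4.87, and 3.86 in knockout-labelled vehicle replicate 4 against 0.338 to 1.4. Other libraries did not follow it. Knockout-labelled vehicle replicate 2 had a stromal mean of 0.461 and a share of 5.06%, against 1.4 and 4.76% in replicate 1. Replicate 2 was the highest of its group for 26 members, or 30.6%, which is below the 35.2% of all genes. In the knockout-labelled dexamethasone group the stromal mean ran from 0.613 to 2.45 while the share stayed between 4.94% and 5.2%. The part of stromal cells in the members' levels was not tested; in such bulk RNA fewer cells of a type and less RNA per cell cannot be told apart.

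**Figure D3:**
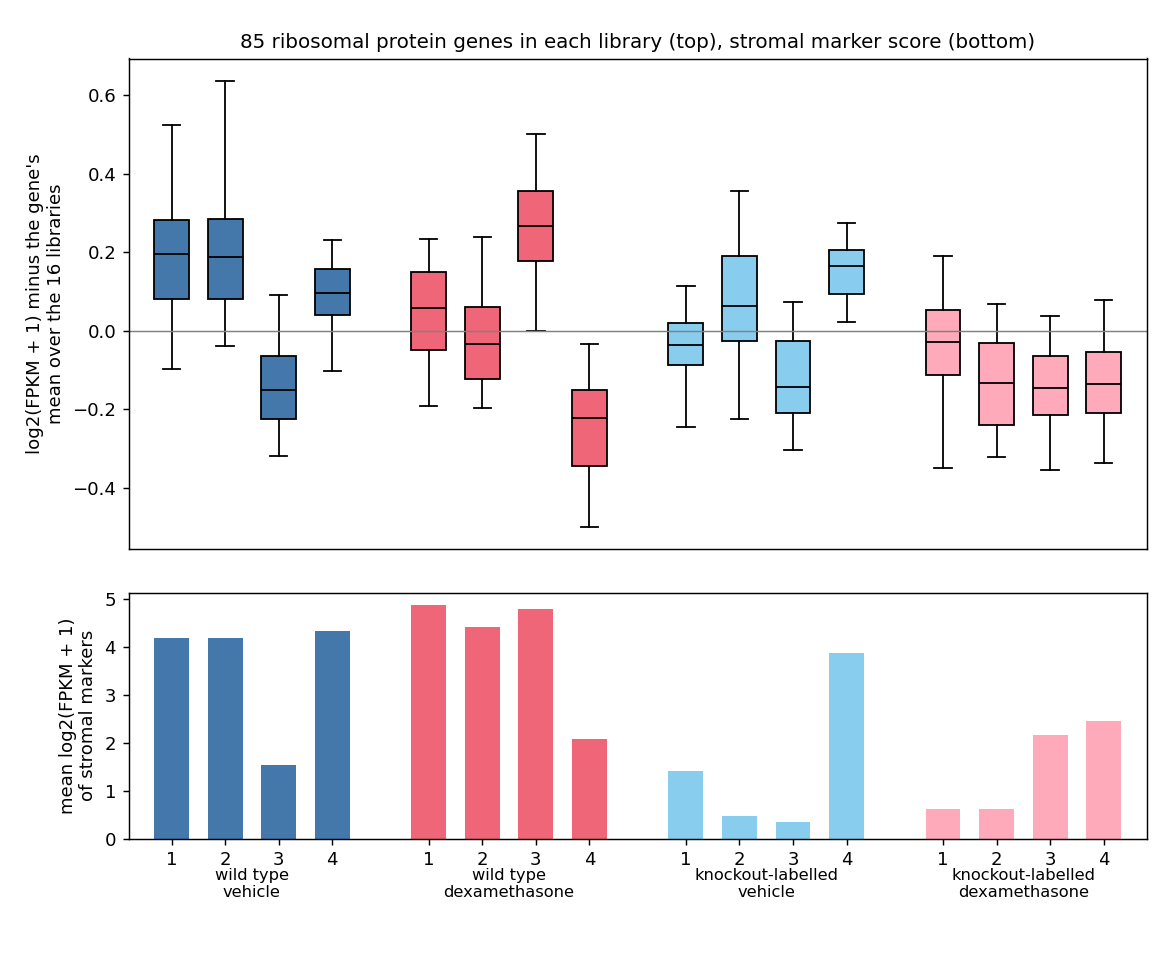
Top, log2(FPKM + 1) of the 85 members in each library minus the gene's mean over the 16 libraries; lines mark medians, boxes the middle 50% and whiskers the 5th to 95th percentile. Bottom, the mean log2(FPKM + 1) of the stromal markers, lowest among wild-type libraries in vehicle replicate 3 (1.53) and dexamethasone replicate 4 (2.08), where the members also sit lowest.

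The within-group SD of a member had a median of 0.18 on the log2 scale, against 0.15 over all genes tested and 0.14 over genes with a mean of at least 20 FPKM. The smallest was that of Rpl7l1 (0.06), whose human counterpart acts in assembly of the large subunit. The largest was that of Rpl39l (1.13), a paralog of Rpl39 best known from mouse testis. Rpl39l was at 7.33, 7.86, 0.418 and 6.94 FPKM in wild-type vehicle, 10.3, 5.85, 11.9 and 0.694 FPKM in wild-type dexamethasone, 0.768, 0.0726, 0.0693 and 4.48 FPKM in knockout-labelled vehicle and 0.137, 0.314, 1.71 and 1.45 FPKM in knockout-labelled dexamethasone libraries. It was low in the 2 wild-type libraries with little Col1a1 and high in the knockout-labelled vehicle library with much. Its log2 difference between knockout-labelled and wild-type libraries was the lowest of all members, -1.56 ± 0.73 in vehicle and -1.85 ± 0.73 under dexamethasone, and did not pass (limma adjusted p of 0.229 and 0.0706). Rpl39, its abundant paralog, differed by 0.06 ± 0.14 and -0.07 ± 0.14 in the same comparisons.

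In wild-type cells few members passed the test with dexamethasone. None was called higher and 3 of 85 were called lower, or 3.53% of members, where 30.1% of all genes tested were called, 18.2% lower and 11.9% higher. The median member log2 difference was -0.08, against -0.02 over all genes, and 60 members lay below 0. The members' mean share of the summed FPKM was 5.42% in vehicle and 5.72% under dexamethasone. The median member log2(FPKM + 1) of a library was 7.54 ± 0.17 in vehicle and 7.38 ± 0.20 under dexamethasone (SD, n = 4), and the libraries of both groups overlapped. The sign of the median difference depended on the scaling: -0.040 after median-ratio scaling, 0.070 after quantile normalization and 0.052 after rescaling to the genes that are not members.

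The 3 members called lower were Rps19bp1, Rps24 and Rpl23. Rpl23, a large-subunit protein at the interface of the subunits, was at 206, 219, 208 and 197 FPKM in vehicle and 173, 178, 194 and 166 FPKM under dexamethasone, and the groups did not overlap. It fell by 0.22 ± 0.06 on the log2 scale (limma adjusted p = 0.0137). Rps24, a small-subunit protein mutated in some patients with Diamond-Blackfan anaemia, was at 58.4, 64.7, 58.5 and 59.1 FPKM in vehicle and 47.9, 54.3, 55.9 and 44.3 FPKM under dexamethasone, also without overlap. Its log2 difference was -0.25 ± 0.08 (limma adjusted p = 0.0309). Both calls were lost under median-ratio, quantile and non-member scaling, with only the groups compared and with voom; over the alternatives other than leaving out 1 library, the difference of Rpl23 ran from -0.23 to -0.08 (adjusted p up to 0.451) and that of Rps24 from -0.26 to -0.11 (adjusted p up to 0.411, limma). Rps24 also lost the call with no filter, with summed copies, without the 3 libraries that stand apart in Col1a1 (-0.20) and without any of wild-type vehicle replicates 2 and 4 and wild-type dexamethasone replicates 1 and 4.

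Rps19bp1 carries the symbol but is not a ribosomal protein; in human cells it binds RPS19 and regulates the deacetylase SIRT1. It was at 22.7, 21.5, 18.9 and 20.5 FPKM in wild-type vehicle and 16.8, 14.4, 19 and 16.1 FPKM in wild-type dexamethasone libraries, a log2 difference of -0.32 ± 0.09 (limma adjusted p = 0.0169). In knockout-labelled cells it was at 16.4, 22, 18.1 and 18.7 FPKM in vehicle and 15.4, 13.5, 14.6 and 14 FPKM under dexamethasone, a difference of -0.36 ± 0.09 (limma adjusted p = 0.00665). It was the member called lower with dexamethasone in both genotypes. The 2 comparisons have no libraries in common, but they were fitted together with a shared estimate of the spread. In wild type the groups overlapped, with 18.9 FPKM in vehicle replicate 3 and 19 FPKM in dexamethasone replicate 3. Rescaling to the genes that are not members and voom on recovered reads each ended both calls, and the wild-type call was also lost without vehicle replicate 1 or dexamethasone replicate 2.

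In knockout-labelled cells 5 of 85 members (5.88%) were called lower with dexamethasone and none higher, where 39.1% of all genes tested were called, 24.1% lower and 15% higher. The median member difference was -0.15 against -0.05 over all genes, and 73 members lay below 0. The members' mean share of the summed FPKM was 5.06% in vehicle and 5.06% under dexamethasone. The median member log2(FPKM + 1) of a library was 7.41 ± 0.13 in vehicle and 7.25 ± 0.07 under dexamethasone (SD, n = 4), again with overlap. The median difference was -0.089 after median-ratio scaling, 0.073 after quantile normalization and 0.015 after rescaling to the genes that are not members. With these 8 libraries fitted alone, 11 members were called lower, and without 1 library the count ran from 3 (knockout-labelled vehicle replicate 2) to 9 (knockout-labelled vehicle replicate 3). The share of all genes called in these fits is not given.

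Rpl12 and Rplp1 belong to the stalk and its base, where translation factors dock on the large subunit. Rpl12 was at 133, 135, 124 and 136 FPKM in knockout-labelled vehicle and 91.3, 94.4, 101.5 and 96.2 FPKM in knockout-labelled dexamethasone libraries. The groups did not overlap, and the log2 difference was -0.46 ± 0.11 (limma adjusted p = 0.00508). In wild type Rpl12 was at 142, 138, 116 and 135 FPKM in vehicle and 131, 116, 138 and 87.2 FPKM under dexamethasone, overlapping groups with a difference of -0.19 ± 0.11 (adjusted p = 0.231). The difference between the genotypes in this response was -0.27 ± 0.16 and did not pass (limma interaction, adjusted p = 0.539).

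Rplp1 was at 1660, 1883, 1434 and 1752 FPKM in knockout-labelled vehicle and 1278, 1293, 1326 and 1312 FPKM in knockout-labelled dexamethasone libraries, again without overlap, a difference of -0.36 ± 0.11 (limma adjusted p = 0.0153). Its partners Rplp2 and Rplp0 differed by -0.24 ± 0.12 and -0.24 ± 0.17 and did not pass. In wild type Rplp1 was at 1866, 1710, 1475 and 1714 FPKM in vehicle and 1646, 1389, 1839 and 1375 FPKM under dexamethasone, groups that overlapped, with a difference of -0.12 ± 0.11.

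Rps27l, a paralog of Rps27 that is a target of p53 in human cells, had the largest difference. It was at 122, 132, 119 and 132 FPKM in knockout-labelled vehicle and 88.1, 78.4, 99.5 and 93.8 FPKM in knockout-labelled dexamethasone libraries, a difference of -0.49 ± 0.14 (limma adjusted p = 0.0112). In wild type it was at 141, 135, 104 and 124 FPKM in vehicle and 100.8, 103, 125 and 72.2 FPKM under dexamethasone, a difference of -0.34 ± 0.14 that did not pass (adjusted p = 0.0771). Rps27 itself lay on the other side of 0, at 0.17 ± 0.14 in knockout-labelled and 0.24 ± 0.14 in wild-type cells, and did not pass in either. Rps27 has the TOP-like start shown above and neither annotated Rps27l start does. Whether the start bears on these mRNA levels was not tested.

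Rpl19, a large-subunit protein at the subunit interface, completed the 5 with 492, 499, 459 and 538 FPKM in knockout-labelled vehicle and 425, 414, 398 and 383 FPKM in knockout-labelled dexamethasone libraries. Its difference of -0.29 ± 0.11 (limma adjusted p = 0.0382) was the weakest call: it was lost without any of knockout-labelled vehicle replicates 1, 2 and 4 or any knockout-labelled dexamethasone library, and also with no filter, under median-ratio and non-member scaling and with voom, and it turned to 0.11 after quantile normalization. Rpl12 and Rps27l kept theirs without any 1 library, and lost them under quantile and non-member scaling and with voom. Rplp1 lost it without knockout-labelled vehicle replicate 2, at an adjusted p of 0.0527 (limma), and also without a filter, under quantile and non-member scaling and with voom.

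**Figure D4:**
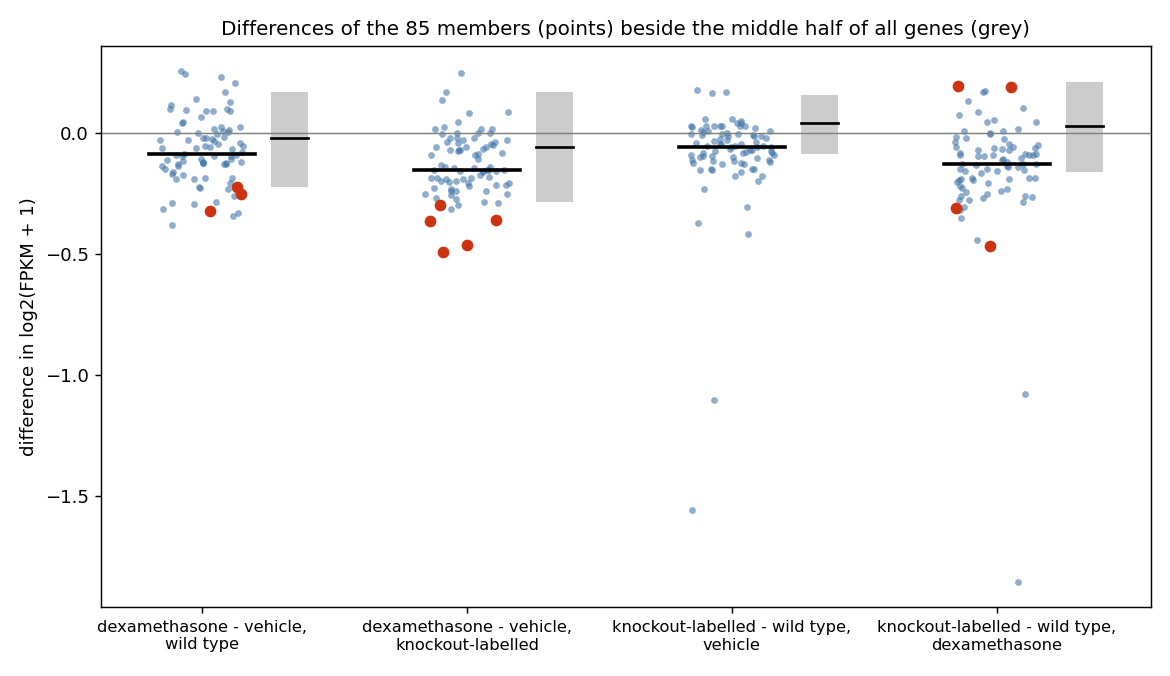
Difference in log2(FPKM + 1) of each of the 85 members in the 4 comparisons; red points passed the test, black lines are medians, and grey bars span the middle 50% of all genes tested with their median. The members' medians are -0.08, -0.15, -0.05 and -0.13, and the lowest points in the genotype comparisons are Rpl39l and Rps3a1.

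Between knockout-labelled and wild-type cells in vehicle no member was called in either direction, where 4.68% of all genes tested were called, 3.37% higher and 1.3% lower. At an unadjusted p under 0.05 there were 6 of the 85 members, against 2531 of all 11654 genes tested (limma). With voom on recovered reads 0 members were called in either direction. The median member difference was -0.05, against 0.04 over all genes. Without the 3 libraries that stand apart in Col1a1, 18 members were called lower and 1 higher, and the wild-type libraries left all had 124 to 174 FPKM of Col1a1 while the knockout-labelled ones had 0.395 to 4.76 FPKM. Limma's array weights, which weigh libraries by how well they follow their group, gave 23 lower. The share of all genes called in these alternative fits is not given, so their counts cannot be read as particular to the members. With the stromal mean as a covariate no member was called and the median turned to 0.099.

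Under dexamethasone 2 members were called higher in knockout-labelled cells (Rpl7l1 and Rps27a; 26.7% of all genes tested were called, 14.3% higher) and 2 lower (Rplp0 and Rpl8; 12.4% of all genes). The median member difference was -0.13, against 0.03 over all genes. Leaving out wild-type dexamethasone replicate 4 alone gave 19 lower, and leaving out any other dexamethasone library 0 or 1. Without the 3 libraries that stand apart in Col1a1 32 members were called lower, array weights gave 41, and the stromal covariate gave 0 lower and 1 higher with a median of 0.066. The share of all genes called in these fits is not given, so the counts cannot be read as particular to the members. Stromal markers moved with this comparison: all 8 that passed the filter lay below 0 in knockout-labelled cells, 7 of them called lower, and the summed FPKM of the 10 was 67.1 to 1124 in wild-type and 6.47 to 93.3 in knockout-labelled dexamethasone libraries. Of 10 macrophage markers, 5 were called higher in knockout-labelled cells. Genotype and stromal content cannot be told apart in these groups.

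Rplp0, the scaffold of the stalk, was at 675, 596, 763 and 438 FPKM in wild-type and 428, 434, 446 and 445 FPKM in knockout-labelled dexamethasone libraries. Wild-type replicate 4 lay inside the knockout-labelled range, and the log2 difference of -0.47 ± 0.17 stood at the threshold (limma adjusted p = 0.04998); without 1 library it was called in 3 of 16 fits, those that left out one of the 3 libraries apart in Col1a1. Rpl8, a protein next to the peptidyl transferase centre, was at 440, 406, 504 and 387 FPKM in wild-type and 364, 350, 341 and 340 FPKM in knockout-labelled dexamethasone libraries, with no overlap and a difference of -0.31 ± 0.11 (limma adjusted p = 0.0428). It was called in 6 of the 16 fits without 1 library, those without wild-type vehicle replicate 1 or 3, wild-type dexamethasone replicate 4 or knockout-labelled vehicle replicate 2, 3 or 4. With the stromal covariate the differences of Rplp0 and Rpl8 were -0.06 and -0.12.

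Rpl7l1 was at 27.3, 25.9, 28.9 and 25.4 FPKM in wild-type and 31.3, 29.2, 31.7 and 31.5 FPKM in knockout-labelled dexamethasone libraries, with no overlap and a difference of 0.20 ± 0.05 (limma adjusted p = 0.0137). It kept the call without any 1 library and with the stromal covariate (0.25), missed it after rescaling to the genes that are not members (adjusted p = 0.0550), and in vehicle it differed by 0.18 ± 0.05 (adjusted p = 0.0597). Rps27a, which encodes a small-subunit protein fused to ubiquitin, was at 182, 189, 207 and 187 FPKM in wild-type and 243, 216, 213 and 202 FPKM in knockout-labelled libraries, overlapping groups with a difference of 0.19 ± 0.06 (limma adjusted p = 0.0341). It was not called under any of the 3 other scalings or with the stromal covariate, nor without any of wild-type dexamethasone replicates 1 and 2 and knockout-labelled dexamethasone replicates 1, 2 and 3.

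No member's response to dexamethasone was called different between the genotypes (limma interaction, 0 of 85 in either direction). Of all genes tested 0.129% were called, 0.0601% higher and 0.0686% lower. At an unadjusted p under 0.05 there were 2 members, against 1359 of all 11654 genes tested (limma interaction). The 2 members were Rpl23, at 0.20 ± 0.09, and Rps24, at 0.27 ± 0.12, the core members called lower with dexamethasone in wild type. That wild-type difference is part of the interaction, so the 2 results are not separate. In knockout-labelled cells Rpl23 differed by -0.02 ± 0.06 and Rps24 by 0.02 ± 0.08. The large and small subunits gave like medians: -0.06 for Rpl and -0.09 for Rps members with dexamethasone in wild type, -0.14 and -0.16 in knockout-labelled cells.

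Fau and Rack1 are ribosomal proteins under other symbols. Fau, a small-subunit protein fused to a ubiquitin-like domain, passed in no comparison. Rack1, a signalling scaffold on the small subunit, was called lower with dexamethasone in knockout-labelled cells, by -0.25 ± 0.08 (limma adjusted p = 0.0255). Of the 7 genes listed under translation elongation, Eif5a and Eef1e1 were lower with dexamethasone in wild type. In knockout-labelled cells Eif5a, Eef1e1 and Eef1g were lower, and Eif5a, which helps ribosomes over proline stretches, differed by -0.87 ± 0.08. Over all genes tested 18.2% and 24.1% were called lower in these comparisons. Eef1a1, which delivers aminoacyl-tRNA, differed by -0.08 and -0.04 and did not pass.

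Of 29 initiation factors, 2 were called higher and 4 lower with dexamethasone in wild type, and 4 and 5 in knockout-labelled cells, where 30.1% and 39.1% of all genes tested were called. Eif4a1, the helicase of the cap-binding complex, was lower by -0.61 ± 0.10 and -0.87 ± 0.10. Of 19 other genes with TOP mRNAs 2 were higher and 3 lower in each genotype, with a median of -0.02 in wild type and -0.04 in knockout-labelled cells. Eif4b, a helicase cofactor on that list, rose in both, by 0.29 ± 0.07 and 0.35 ± 0.07.

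Of 39 ribosome biogenesis factors tested, 7 were lower and 1 higher with dexamethasone in wild type and 12 lower and 3 higher in knockout-labelled cells, with medians of -0.13 and -0.10; over all genes 18.2% and 24.1% were lower. Bop1, which processes large-subunit rRNA, differed by -0.24 ± 0.07 and -0.46 ± 0.07, and Nop56, a core protein of box C/D particles, by -0.30 and -0.32. Fbl, the methyltransferase of those particles, did not pass. Of the 14 genes of RNA polymerase I and its factors, Polr1a and Polr1b, its 2 largest subunits, were called higher in wild type, and in knockout-labelled cells 2 were higher and 1, the initiation factor gene Rrn3, lower.

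The mTORC1 pathway list held the largest single changes of these lists with dexamethasone, up to 4.51 in wild type and 6.32 in knockout-labelled cells. Its medians were near 0, at 0.07 and -0.08. Of 27 tested, 7 were higher and 3 lower with dexamethasone in wild type, and 7 and 8 in knockout-labelled cells. Over all genes tested 30.1% and 39.1% were called in these comparisons. Ddit4, an inhibitor of mTORC1 and a known glucocorticoid receptor target, was at 10.4 ± 6.47 FPKM in vehicle and 213 ± 33.6 FPKM under dexamethasone in wild type, and at 4.04 ± 3.71 and 340 ± 28 FPKM in knockout-labelled cells (SD, n = 4), and rose in both. Rptor, the scaffold of mTORC1, rose by 0.41 and 0.75 on the log2 scale. Myc, which drives ribosomal protein genes in many cells, was at 8.16 ± 2.36, 9.03 ± 4.21, 5.44 ± 1.7 and 2.79 ± 1.15 FPKM in wild-type vehicle, wild-type dexamethasone, knockout-labelled vehicle and knockout-labelled dexamethasone libraries. Of the 7 MYC network genes tested, 2 were higher and 2 lower with dexamethasone in wild type and 1 and 4 in knockout-labelled cells. The difference of Myc between knockout-labelled and wild-type cells under dexamethasone, -1.31, passed the test (limma adjusted p = 0.0168), and within wild type it was lowest in the 2 libraries with little Col1a1, at 5.07 and 2.84 FPKM.

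**Figure D5:**
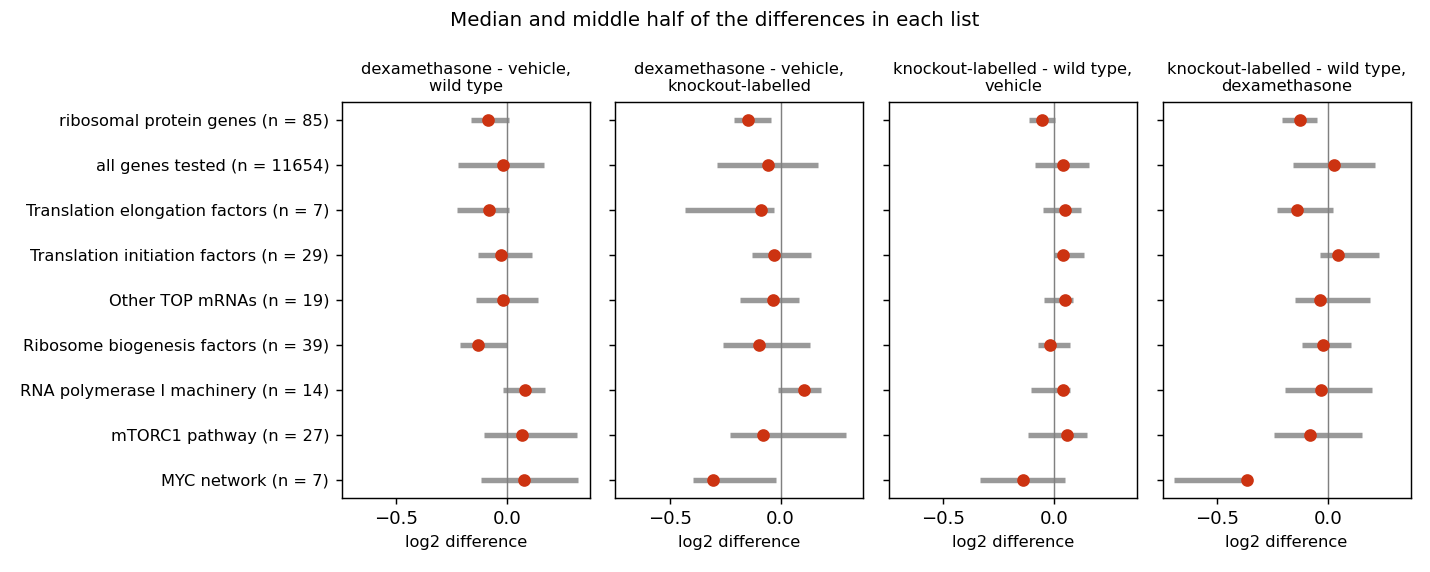
Median (red points) and middle 50% (grey bars) of the differences in log2(FPKM + 1) of the 85 members, all 11654 genes tested and 7 lists of genes of translation, ribosome assembly and its control, in the 4 comparisons. The members' medians (-0.08, -0.15, -0.05 and -0.13) are below those of all genes (-0.02, -0.05, 0.04 and 0.03) in each comparison.

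Between the genotypes in vehicle, where 4.68% of all genes tested were called, these lists held 2 mTORC1 genes higher and 1 lower, 1 MYC network gene lower, and none among the elongation, initiation, other TOP, biogenesis and RNA polymerase I genes. Under dexamethasone, where 26.7% of all genes tested were called, 7 initiation factors were higher in knockout-labelled cells and 2 lower. For biogenesis factors 6 were higher and 1 lower, for mTORC1 genes 3 higher and 5 lower. For RNA polymerase I genes 1 was higher and 4 lower, and for other TOP genes 4 higher and 1 lower. On the elongation list 2 genes were lower, and 6 MYC network genes were lower.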

How the data were processed

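RNA of 16 libraries in 4 groups was analysed from a deposited table of FPKM per Ensembl gene. Per the submitters' processing notes, the authors named Bowtie2 2.2.3, TopHat2 2.0.12, HTSeq 0.6.1, DESeq2 and the GRCm38/mm10 build; strand setting and handling of multiply placed reads were not given in the sources used here. The FPKM deposited by the authors are not counts. Whole reads were recovered for 96.5% of values (within 0.05 reads) and used for depth, shares of reads on copies and as an alternative. The 11654 genes reaching 1 FPKM in 4 or more libraries were tested on log2(FPKM + 1) with limma 3.58.1 (all 16 libraries, group means, trended variance, Benjamini-Hochberg, threshold 0.05), tested first on simulated data. Gene models were GENCODE M21 and near-copies were found with blastn. Single values used exact permutation tests. No pair of libraries agreed within sampling noise. Named members were those with the largest called differences (up to 4 a direction), the 3 highest and 3 lowest, paralogs and name-only genes, up to 8 with most reads on copies, Rps3a1, and the most and least variable. Rpl19, Rps6, Rps27, Rpl39 and the overlapping genes were added after their values were seen. Members and lists were chosen with earlier results of these data known. Pseudocount, filter, scaling, weights, the libraries fitted, a replicate block, voom and summed copies were tried as alternatives. Some genes are not reported here.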

Additional observations from a re-analysis of the deposited data

Results flagged for a closer look

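For 27 named members in each of the 4 groups, 8 sets of 4 libraries held a library far from the other 3; chance alone flags about 1 in 20 such groups. Rpl39l stood at 0.418 FPKM in wild-type vehicle replicate 3 and at 4.48 FPKM in knockout-labelled vehicle replicate 4, the libraries of their groups that also stand apart in Col1a1. Rps2 stood at 212 FPKM in knockout-labelled dexamethasone replicate 2, where Rps2-ps10 was lowest. In wild-type vehicle Rps24 stood at 64.7 FPKM in replicate 2, Rps27rt at 7.51 FPKM in replicate 2 and Rpl30 at 15.9 FPKM in replicate 1. In knockout-labelled dexamethasone Rpl7l1 stood at 29.2 FPKM and Rps12-ps3 at 4.33 FPKM, both in replicate 2. The part of stromal cells and of read placement in these values was not tested.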

How the results depend on the processing

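Of 124 single-gene values under the alternatives, 86 kept direction and side of the threshold, 35 lost the call, 2 gained it and 1 reversed: Rpl19 with dexamethasone in knockout-labelled cells, 0.11 after quantile normalization. Counts of members called follow, and the cause of each change was not tested. Shares of all genes called are not given for these fits or for those without libraries. The counts therefore cannot be read as particular to the members. With dexamethasone in wild type (3 lower, 0 higher), lower and higher counts were 1 and 1 after median-ratio scaling, 1 and 4 after quantile normalization (median 0.070), 0 and 1 after non-member rescaling, 5 and 1 with array weights, 0 and 1 with voom and 7 and 1 with the stromal covariate, and 1 was lower with only the groups compared. In knockout-labelled cells (5 lower, 0 higher) 3 were lower without a filter, 1 was higher after median-ratio scaling, and counts were 1 and 7 after quantile normalization (median 0.073), 0 and 3 after non-member rescaling (median 0.015), 11 and 2 with array weights, 0 and 2 with voom (median 0.019) and 9 and 1 with the stromal covariate; 11 were lower with only the groups compared and 1 higher with summed copies. Between genotypes in vehicle array weights gave 23 lower and 1 higher, and the stromal covariate a median of 0.099. Under dexamethasone (2 lower, 2 higher) pseudocount 0.1 gave 1 lower; no filter, voom and the stromal covariate (median 0.066) gave 0 lower and 1 higher; median-ratio and quantile scaling gave 5 and 1; non-member rescaling gave 0 and 0; array weights gave 41 lower; only the groups compared gave 1 and 1; summed copies gave 1 higher. Array weights gave 1 member lower in the interaction. The share of recovered reads on members was 2.76% and 2.84% in wild-type vehicle and dexamethasone and 2.51% and 2.56% in knockout-labelled libraries; without mitochondrial transcripts the FPKM share of the last group was 5.18%.

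Without 1 library, members called lower ran from 2 to 6 with dexamethasone in wild type, from 3 to 9 in knockout-labelled cells, from 0 to 2 between genotypes in vehicle and from 0 to 19 under dexamethasone; those called higher ran from 0 to 2, 0 to 1, 0 to 1 and 1 to 2. The 6 came without wild-type vehicle replicate 3, 5 without wild-type dexamethasone replicate 3, the 9 without knockout-labelled vehicle replicate 3 or wild-type dexamethasone replicate 4, and the 19 without wild-type dexamethasone replicate 4. Medians ran from -0.15 to 0.01, -0.20 to -0.09, -0.12 to 0.00 and -0.20 to -0.02, and in the interaction from -0.15 to 0.03. Without the 3 libraries that stand apart in Col1a1 (chosen after seeing the data, as were the stromal covariate and the Rps3a1 sum), lower and higher counts were 5 and 1, 8 and 1, 18 and 1, and 32 and 2, with medians of -0.06, -0.09, -0.16 and -0.20.

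Of 24 correlations of same-numbered libraries 16 were below 0. Between vehicle and dexamethasone, replicates 1 to 4 gave 0.54, 0.21, -0.68 and -0.45 in wild type. In knockout-labelled cells they gave -0.06, 0.39, -0.35 and 0.45. These values of mixed sign do not settle whether replicate numbers pair libraries. With a replicate block 1 member was called higher and 0 lower between genotypes under dexamethasone, and the dexamethasone calls of Rps24 in wild type and Rpl19 in knockout-labelled cells were not made. Depth, at 16886745 to 20584573 reads, limits the members below 10 FPKM most.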
